A study of Mus musculus with 19 samples.

Results

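Male hybrids between STUS/Jpia (STUS, M. m. musculus) and C57BL/6J (B6, M. m. domesticus) with the wild-type Prdm9 alleles of both parents, written STUS/B6, carry B6 hotspots of which a minority are cut mainly on the B6 chromosome. These B6-side hotspots are the subject here. They were selected on 3 values of the STUS/B6 hotspot table: an autosomal position, attribution to the B6 allele of PRDM9, and a B6 fraction above 75%, which is the share of DMC1 reads carrying the B6 version of SNPs at a hotspot. The rule took 645 of the 6115 autosomal hotspots of the B6 allele, among 17309 autosomal hotspots of the library and 74327 hotspots in the 5 libraries of the series. A B6 fraction was listed for 5588 of the 6115, and 527 had none.

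DMC1 coats the single-stranded DNA of a resected double-strand break, and sequencing of the single strands it holds (SSDS) maps these breaks in testis. The study has 1 DMC1 library for each of 5 genotypes of adult male mice. The libraries set beside STUS/B6 are STUS/Hum, from the same cross with the B6 allele replaced by the humanized Prdm9 allele (the zinc-finger array of the human PRDM9 B allele), and 3 from the cross of B6 with SPRET/EiJ (SPRT, M. spretus). The latter are B6/SPRT with wild-type alleles, Hum/SPRT with the humanized allele, and CAST/SPRT with the M. m. castaneus allele in place of that of B6. For B6/SPRT there are also 2 ChIP and 2 input samples of H3K4me3, the histone methylation set by bound PRDM9. The labels write the STUS cross with B6 first, the paper writes it in both orders, and the paper's genotype names are used here. At X chromosome hotspots of STUS/B6 the median B6 fraction was 100%. Males carry only the X of the mother, so this value goes with a B6 mother, the order of the labels. STUS/B6 is therefore used here as a genotype name and not for the order of the parents. Positions are those of the tables, whose build is mm10. Each genotype has 1 DMC1 library and hence no replicate error, so no difference below was tested, and the 95% Wilson intervals given cover counting only.

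PRDM9 recognises DNA motifs through its zinc fingers, methylates nearby histones and so sets where meiotic breaks form. Repair of a break copies the uncut homolog, so variants that destroy a motif spread in the lineage in which that PRDM9 allele acts, a process called erosion. A motif eroded in B6 can be intact in another strain. In a hybrid, breaks set by B6 PRDM9 then form mostly on the homolog of that strain. A B6-side hotspot shows the reverse arrangement, with breaks of the B6 allele on the chromosome of its own lineage.

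Genome sequence around the hotspot centers was not analysed here, and the bases at the centers are not shown. Nearby bases are given for 4 hotspots with a center within 200 bp of a RefSeq promoter window (GRCm38.p6). These are among the 623 on the 18 autosomes with promoter sequences, and each center lies outside its printed stretch. They were chosen after their values were seen. The 250 bases before the gene start are given 5′ to 3′ on the strand of the gene, with capitals for bases within 200 bp of the hotspot center. The most one-sided lies beside Gm46165, a long noncoding RNA gene (chr1:154103613-154103862, plus strand). Its center is 147 bp downstream of the start, its DMC1 signal was 242, and its B6 fraction was 99.8% in STUS/B6 and 99.5% in B6/SPRT. The one at Dennd1b, which encodes an exchange factor for Rab GTPases (chr1:138967471-138967720, plus strand), has its center 16 bp downstream of the start, a signal of 59.6 and a B6 fraction of 76.7%. The remaining 2 lie upstream of long noncoding RNA genes. At Gm51891 (chr11:44531142-44531391, plus strand) the center is 365 bp from the start. Its B6 fraction was 88.9% in STUS/B6 and 75% in B6/SPRT, which is not above the limit. At AW112010 (chr19:11050567-11050816, minus strand) the center is 380 bp from the start and the B6 fraction was 82.0%. No B6/SPRT fraction was listed for Dennd1b or AW112010.
Gm46165: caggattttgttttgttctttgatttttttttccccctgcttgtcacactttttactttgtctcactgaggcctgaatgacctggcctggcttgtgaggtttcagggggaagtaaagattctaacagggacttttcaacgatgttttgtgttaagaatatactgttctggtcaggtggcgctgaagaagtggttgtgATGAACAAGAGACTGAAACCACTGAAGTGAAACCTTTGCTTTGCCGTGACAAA
Dennd1b: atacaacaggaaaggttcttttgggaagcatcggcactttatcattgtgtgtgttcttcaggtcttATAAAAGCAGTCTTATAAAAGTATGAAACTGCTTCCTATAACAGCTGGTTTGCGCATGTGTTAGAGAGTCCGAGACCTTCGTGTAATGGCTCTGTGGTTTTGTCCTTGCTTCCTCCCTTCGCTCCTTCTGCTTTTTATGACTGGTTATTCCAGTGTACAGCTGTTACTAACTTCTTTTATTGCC
Gm51891: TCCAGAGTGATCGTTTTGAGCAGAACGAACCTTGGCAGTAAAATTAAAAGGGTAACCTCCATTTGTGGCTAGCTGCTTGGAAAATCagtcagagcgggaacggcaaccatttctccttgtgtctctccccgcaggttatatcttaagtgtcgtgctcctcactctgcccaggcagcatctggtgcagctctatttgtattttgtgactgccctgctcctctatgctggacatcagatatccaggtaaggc
AW112010: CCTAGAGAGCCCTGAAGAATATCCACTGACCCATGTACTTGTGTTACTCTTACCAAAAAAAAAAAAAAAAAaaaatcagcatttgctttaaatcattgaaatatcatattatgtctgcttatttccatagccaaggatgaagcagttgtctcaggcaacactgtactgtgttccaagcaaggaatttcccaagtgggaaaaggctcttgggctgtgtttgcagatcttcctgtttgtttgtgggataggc
GC content of these stretches was 42.4, 41.6, 48.8 and 39.2% in the order printed, each below the median of 52.4% over 31396 promoters of these autosomes. They held 3, 5, 6 and 0 CG dinucleotides, where the median promoter held 6. No motif was searched in them.

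Among B6 hotspots with a fraction, 11.5% were B6-side (interval 10.7 to 12.4%), a share fixed by the rule. Matched hotspots, with a B6 fraction of 25 to 75%, numbered 2130 (38.1%), and STUS-side hotspots, below 25%, numbered 2813 (50.3%). The STUS allele had a mirror group, larger in number and smaller as a share: 759 of its 8122 hotspots with a fraction (9.34%, interval 8.73 to 9.997%) were cut mainly on the STUS chromosome, an interval that lies below that of the B6-side hotspots. Fractions of the B6-side hotspots piled up at the top of the range. Of the 645, 264 (40.9%) lay above 95%, and 107 of these were listed at 100%. Another 196 lay above 85% and up to 95%, and 185 above 75% and up to 85%. In steps of 5 percentage points the count fell to 68 between 80 and 85% and rose to 119 and 264 in the last steps. Above the limit the distribution thus first continued the fall of the matched range and then rose toward 100%.

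**Figure D1:**
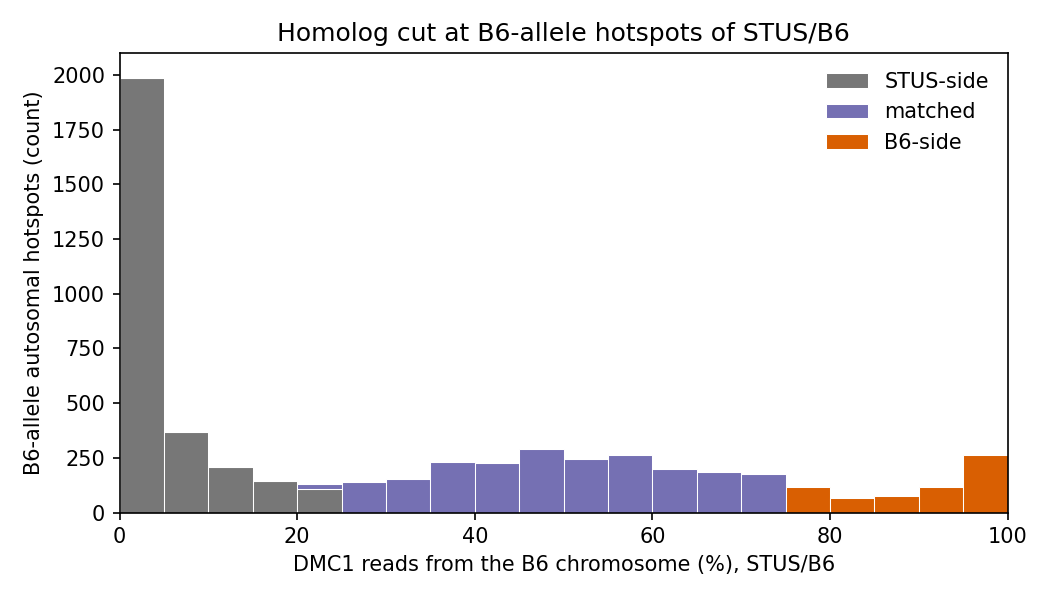
Count of B6-allele autosomal hotspots of STUS/B6 (vertical axis) by the percentage of their DMC1 reads from the B6 chromosome (horizontal axis, steps of 5 percentage points, each holding its upper end). Colors mark the 2813 STUS-side, 2130 matched and 645 B6-side hotspots, and the last step holds 264 hotspots.

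At the limit itself, 24 hotspots were listed at exactly 75% and were left out. The hotspot just inside lay on chromosome 11 at position 28054089, 5.13 kb from the pseudogene Gm12080, with a B6 fraction of 75.2% and a signal of 135. The nearest hotspot below 75% had 74.9% and a signal of 352. It lay on chromosome 3 at position 63968686 within Gmps, which encodes guanosine monophosphate synthetase.

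B6-side hotspots were weak. Their median DMC1 signal was 29.3 (95% order-statistic interval 26.7 to 32.0), with quartiles of 16.9 and 59.6 and a range of 7.51 to 641. That of matched hotspots was 37.5 (interval 35.7 to 40.5) and that of STUS-side hotspots 137 (interval 130 to 144). Against the median of 64.5 over all B6 hotspots with a fraction, the ratio was 0.455, and on single autosomes it lay between 0.279 and 0.670. The B6-side median was below that of all B6 hotspots on 19 of 19 autosomes, and below that of matched hotspots on 14 of 19. The median B6-side hotspot stood at the 36.1 percentile of signal among all autosomal hotspots of the library. The group made up 11.5% of hotspots and 4.48% of the DMC1 signal, while STUS-side hotspots held 75.1% of it. The mirror group of the STUS allele had a median of 26.2. Among B6-side hotspots the median was 41.0 above 95%, 23.9 from 85 to 95% and 26.0 from 75 to 85%. Signal did not rise steadily with the fraction, since the 107 hotspots listed at 100% had a median of 26.2. The number of reads behind a DMC1 fraction is unknown, so the precision of a fraction at a single weak hotspot cannot be given.

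**Figure D2:**
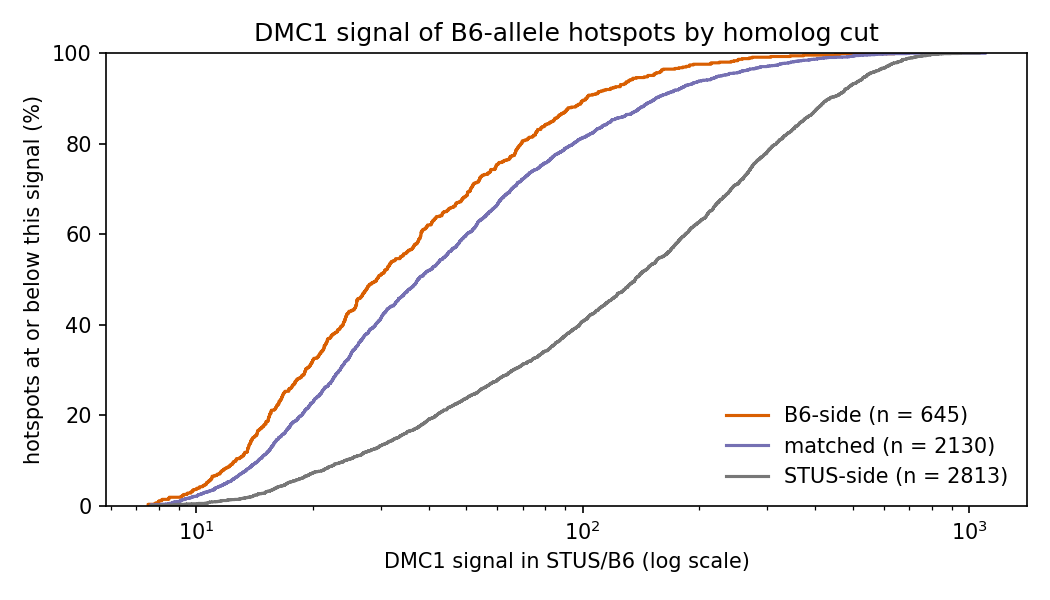
Cumulative percentage of hotspots (vertical axis) at or below a given DMC1 signal in STUS/B6 (horizontal axis, log scale, units of the authors' caller) for the 645 B6-side, 2130 matched and 2813 STUS-side hotspots of the B6 allele. The B6-side curve lies to the left, with a median of 29.3 against 37.5 and 137.

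Although weak as a group, B6-side hotspots included strong sites. The strongest lay on chromosome 6 at position 142862016 within St8sia1, which encodes a sialyltransferase of ganglioside synthesis. Its signal of 641 was at the 98.9 percentile of B6 hotspots, and 99.1% of its reads came from B6. Next came a hotspot on chromosome 13 at position 95391902, 16.5 kb from Aggf1, which encodes an angiogenic factor, with a signal of 462 and a B6 fraction of 98.6%. On chromosome 3 at position 38521983, 36.0 kb from the pseudogene Gm7824, the signal was 451 and the fraction 99.6%. A hotspot on chromosome 1 at position 86218102, within the ciliary gene Armc9, had a signal of 372 and a fraction of 98.5%. The fifth, on chromosome 18 at position 25307738 within AW554918, had 344 and 99.7%. Of the 10 strongest, 9 had a fraction above 98%, and the exception was a hotspot on chromosome 14 at position 46563144, 5.19 kb from the long noncoding RNA gene Rubie, with 79.3% and a signal of 274. The others were on chromosome 17 at position 17653567 (signal 307), on chromosome 4 at position 74226357 (269), and on chromosome 16 at positions 86242632 (259) and 5845163 (253).

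B6-side hotspots occurred on every autosome. Their number ran from 19 on chromosome 19 to 59 on chromosome 1. As a share of B6 hotspots with a fraction, it was lowest on chromosome 9, at 7.48% (22 of 294, interval 4.99 to 11.1%), and highest on chromosome 1, at 14.5% (59 of 407, interval 11.4 to 18.2%). The intervals of 18 of 19 autosomes held the overall share, and that of chromosome 9 did not. Each chromosome was also divided into 5 equal parts between its first and its last hotspot. From low to high coordinates the share was 11.7, 12.2, 12.0, 10.8 and 11.1%, with overlapping intervals.

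**Figure D3:**
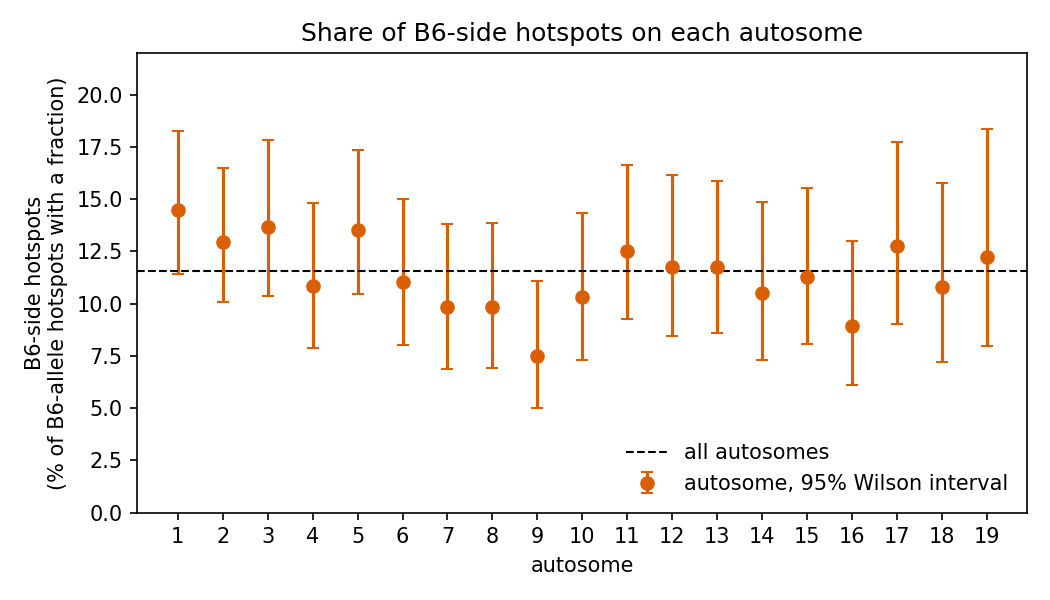
Percentage of B6-allele hotspots with a fraction that were B6-side (vertical axis) on each autosome (horizontal axis). Points are shares, bars are 95% Wilson intervals, and the dashed line is the share over all autosomes, 11.5%, which lies outside the interval of chromosome 9 alone.

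At shorter range, 61 B6-side hotspots (9.46%, interval 7.43 to 12.0%) had another one within 100 kb. A close pair adds both of its hotspots to the 61, so these are not independent and the interval is too narrow. For matched hotspots the share with a B6-side hotspot within 100 kb was 5.63% (interval 4.73 to 6.70%), and for STUS-side hotspots 6.01% (interval 5.19 to 6.95%). Where the nearest other B6 hotspot with a fraction lay within 100 kb, it was B6-side for 42 of 275 B6-side hotspots, or 15.3%, against 11.1% (interval 9.85 to 12.4%) over all B6 hotspots. The lower end of the B6-side interval was 11.5%, so the intervals overlap. The closest pair lay 5908 bp apart on chromosome 11, at positions 121158041 and 121163949, with fractions of 82.1 and 100%. The median distance to the nearest hotspot of any allele was 43.3 kb, close to the 43.4 kb of matched and 40.9 kb of STUS-side hotspots.

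Set against 47038 RefSeq genes on the autosomes, 361 B6-side hotspots lay inside a gene, which is 56.0% (interval 52.1 to 59.8%). The share was 61.5% (interval 59.4 to 63.5%) for matched, 61.0% for STUS-side and 59.7% for all autosomal hotspots of the library. Inside protein-coding genes it was 47.8% (interval 43.9 to 51.6%) for B6-side hotspots and 54.1% (interval 52.0 to 56.2%) for matched ones. For STUS-side hotspots it was 52.9% and for all autosomal hotspots 52.1% (interval 51.4 to 52.9%). The last interval overlaps that of B6-side hotspots. Gene starts were listed for 18 of the autosomes, without chromosome 18. Within 1 kb of a gene start lay 14 of 623 (2.25%, interval 1.34 to 3.74%), beside 1.503% (interval 1.06 to 2.12%) of matched, 1.74% (interval 1.31 to 2.31%) of STUS-side and 2.19% of all autosomal hotspots. The gene table gives no exons, so exonic and intronic positions were not separated.

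The same positions were then examined in B6/SPRT, a cross that shares the B6 genome and the B6 allele of PRDM9 but has SPRT as the other parent. The rule used no signal or fraction of that library, but it used an allele that the authors assigned through comparison with other mice. A hotspot was called there within 500 bp of 234 of the 645 B6-side hotspots, or 36.3% (interval 32.7 to 40.1%). Over all B6 hotspots with a fraction the share was 57.9%, with 45.4% for matched and 72.2% for STUS-side hotspots. Calling went with signal: B6-side hotspots called in B6/SPRT had a median signal of 60.4 in STUS/B6 and the 411 not called a median of 22.1. At signals of 100 and above, 79.4% of B6-side, 92.25% of matched and 83.4% of STUS-side hotspots were called in B6/SPRT. Below 20 the shares were 11.7, 14.6 and 31.5% in the same order. Between 20 and 50 they were 28.4, 31.4 and 52.3%, and between 50 and 100 they were 65.9, 61.7 and 69.8%. Of the 234, 231 were attributed to the B6 allele in B6/SPRT too and 3 had no allele. Over all B6 hotspots with a fraction, 3194 of the 3233 called there were attributed to that allele and 39 had none. Which mice were compared for this allele is not stated, so the shared attribution is no independent check. The centers of the 234 pairs were a median of 64 bp apart and at most 467 bp. At the partners of B6-side hotspots the DMC1 signal in B6/SPRT was also low, with a median of 25.2. This was the 33.3 percentile of B6 hotspots of that library. Partners of matched hotspots had a median of 28.3, the 37.1 percentile, while those of STUS-side hotspots stood at the 63.3 percentile.

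A B6 fraction was listed in B6/SPRT for 178 of the 234. Its median was 61.1% (interval 52.9 to 80%), with quartiles of 29.7 and 94.8%. The B6 chromosome gave over 75% of the reads at 79 of the 178, or 44.4% (interval 37.3 to 51.7%), where 13.1% of all B6 hotspots with a fraction in both libraries did so. For matched hotspots of STUS/B6 the share was 23.3% (interval 20.3 to 26.6%) and for STUS-side hotspots 1.85% (interval 1.21 to 2.81%). On 18 of 19 autosomes the B6-side share exceeded 13.1%, and on chromosome 18 it was 0 of 2. An autosome held 2 to 16 such hotspots, so the tally says little. On chromosomes 8, 16 and 19 a single hotspot sufficed (1 of 6, 1 of 5 and 1 of 3). Another 65 (36.5%, interval 29.8 to 43.8%) were matched in B6/SPRT, between the 57.6% of matched and the 26.7% of all B6 hotspots. At the remaining 34, or 19.1% (interval 14 to 25.5%), over 75% of reads were from the SPRT chromosome, a pattern that matched hotspots of STUS/B6 showed as often, at 134 of 700 (19.1%), and that 60.2% of all B6 hotspots and 92.0% of STUS-side ones showed. B6-side hotspots of STUS/B6 were thus spread over all 3 classes in B6/SPRT, whereas 1043 of the 1134 STUS-side hotspots with both fractions lay on the SPRT side.

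**Figure D4:**
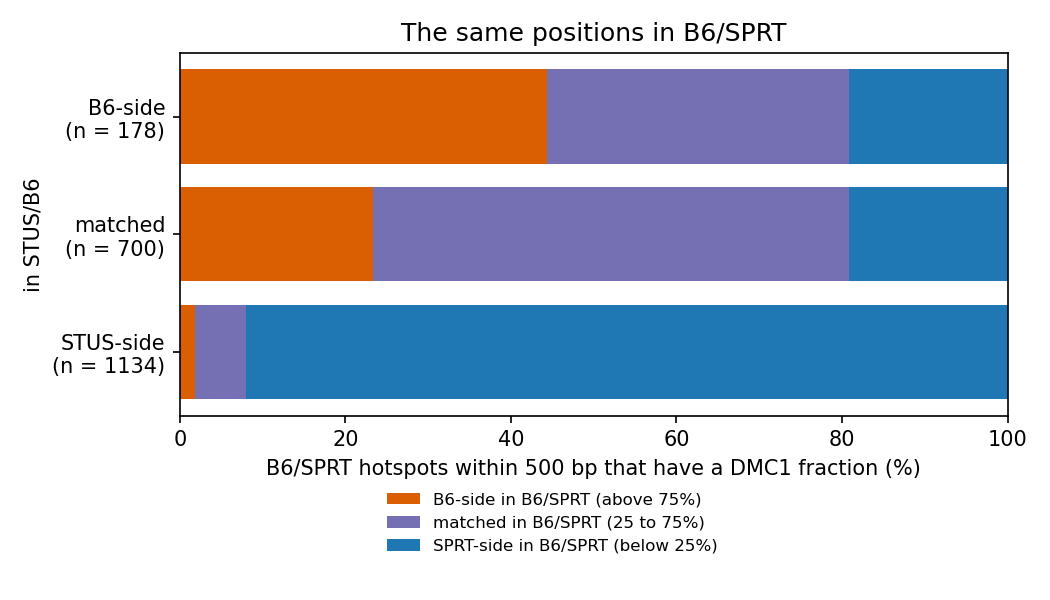
Share of B6/SPRT hotspots in each class of B6 fraction (horizontal axis, percent) at positions within 500 bp of B6-side (178), matched (700) and STUS-side (1134) hotspots of STUS/B6 that have a DMC1 fraction in both libraries. The B6-side part is 44.4, 23.3 and 1.85% from top to bottom.

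The B6-side hotspots were also taken in 3 ranges of their fraction in STUS/B6. Hotspots above 95% there had a median of 82.3% in B6/SPRT and were B6-side at 46 of 88 (52.3%, interval 42.0 to 62.4%). From 85 to 95% the median was 55.9% and the count 21 of 50 (42.0%, interval 29.4 to 55.8%), and from 75 to 85% the median was 47.4%, the count 12 of 40 (30.0%, interval 18.1 to 45.4%) and the number on the SPRT side also 12. The intervals of the 3 ranges overlap, and the hotspots listed at 100% were B6-side at 13 of 25 (52%). Because calling went with signal, the shares were also taken within steps of signal. Between 20 and 50 in STUS/B6, 46.2% of B6-side hotspots were B6-side in B6/SPRT, against 14.2% of matched ones. Between 50 and 100 it was 44.3% of B6-side hotspots against 21.1% of matched ones. At 100 and above it was 51.3% (interval 36.2 to 66.1%) against 32.7% (interval 27.5 to 38.4%) of matched ones. Below 20 the counts were small, 4 of 17 for B6-side and 4 of 46 for matched hotspots. On the SPRT side lay 8 of the 17 and 23 of the 46.

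Read from the other cross, 328 autosomal B6 hotspots of B6/SPRT had a B6 fraction above 75%, which is 12.9% of the 2541 with a fraction. The lists shared 78 positions attributed to B6 in both, which is 23.8% of the B6/SPRT list and 12.1% of the STUS/B6 list. Of all 2541 in B6/SPRT, 6.89% paired with a B6-side hotspot of STUS/B6. Of all 5588 in STUS/B6, 4.42% paired with a hotspot of the B6/SPRT list, and of matched ones 7.28%. In STUS/B6, 279 of the 328 were called and 259 had a fraction, beside 2153 called and 2061 with a fraction of all 2541. Of the 259, 161 (62.2%) had a fraction of 25 to 75%, 84 (32.4%) above 75% and 14 (5.41%) below 25%. Over all B6 hotspots of B6/SPRT with both fractions these shares were 35.0, 9.07 and 55.9%. Of the 84, 78 were attributed to the B6 allele in STUS/B6 and 6 were not.

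The positions cut on B6 in both crosses included the hotspot near Aggf1, with 98.6% of reads from B6 in STUS/B6 and 98.9% in B6/SPRT, where its signal was 75.5. Its H3K4me3 reads in B6/SPRT came to 96.0% from B6 (interval 93.8 to 97.5%, 430 reads carrying a SNP). On chromosome 4 at position 74226357, 1.77 kb from the pseudogene Gm11405, the DMC1 fractions were 100 and 98.4% and the H3K4me3 fraction 86.6% (interval 83.9 to 89.0%, 681 reads). On chromosome 16 at position 5845163, 39.6 kb from Rbfox1, which encodes a splicing factor of neurons and muscle, they were 100, 97.6 and 91.6% (308 reads). At position 17653567 of chromosome 17, 3.63 kb from the pseudogene Gm7513, breaks were one-sided in both crosses (99.3 and 98.7%) while H3K4me3 stood at 71.2% (interval 59.4 to 80.7%, 66 reads). The fifth, on chromosome 6 at position 14060746 and 9.97 kb from the long noncoding RNA gene Gm38767, had fractions of 100 and 93.9% and an H3K4me3 fraction of 91.2% (interval 81.1 to 96.2%, 57 reads).

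Other strong B6-side hotspots were cut on both homologs in B6/SPRT or had no DMC1 fraction there. The hotspot near Gm7824 had 99.6% in STUS/B6 and 61.3% in B6/SPRT, where its signal was 324 and its H3K4me3 fraction 69.0% (interval 65.4 to 72.4%, 661 reads). The hotspot within AW554918 had 99.7 and 59.1%, with H3K4me3 at 53.1%. The hotspot near Rubie had 79.3 and 44.8%, with H3K4me3 at 64.0% (interval 60.7 to 67.1%, 841 reads). At the hotspots within St8sia1 and Armc9 no DMC1 fraction was listed in B6/SPRT, although their signals there were 276 and 353. Their H3K4me3 fractions were 64.4% (interval 60.8 to 67.9%, 683 reads) and 43.5% (interval 40.8 to 46.3%, 1234 reads), so both homologs carried the mark. The hotspot at position 86242632 of chromosome 16, which falls in Gm32357 (a long noncoding RNA gene), was the only one of the 10 strongest with no hotspot called in B6/SPRT.

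Among the 34 positions that switched to the SPRT side, the strongest lay on chromosome 3 at position 30946868 within Phc3, a Polycomb group gene. It had 76.8% of reads from B6 in STUS/B6 and 24.8% in B6/SPRT, so it lay near a limit in both, and its H3K4me3 fraction was 47.1% (interval 41.4 to 53.0%, 280 reads). The switch was wider on chromosome 9 at position 27686932, 74.8 kb from the pseudogene Gm8106, with 95.8 and 11.4% and an H3K4me3 fraction of 44.4% (interval 38.3 to 50.7%, 243 reads). Within Herc2, which encodes a ubiquitin ligase, a hotspot on chromosome 7 at position 56131273 had 78.9 and 16.7%, and its H3K4me3 fraction of 60.2% (interval 51.5 to 68.2%, 128 reads) was the highest of the 34. The other 2 of the 5 strongest lay on chromosome 10 at position 74850584 (76.3 and 17.9%), 12.3 kb from the pseudogene Gm6419, and on chromosome 14 at position 46791018 (81.8 and 21.7%), 2.66 kb from Cnih1, which encodes a cargo receptor of the secretory pathway. Their H3K4me3 fractions were 37.4% (interval 30.4 to 45.1%, 163 reads) and 46.8% (interval 41.7 to 52.1%, 348 reads). The switching positions had a median fraction of 88.7% in STUS/B6 and 9 of them were above 95%. Their B6/SPRT hotspots had a median DMC1 signal of 59.5, while those of positions B6-side in both crosses had 17.6.

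H3K4me3 in B6/SPRT gave a measure of PRDM9 binding by another assay. At the 232 partners of B6-side hotspots with an H3K4me3 fraction, the median share of reads from B6 was 62.4% (interval 58.8 to 65.1%), on a median of 160 reads carrying a SNP. At partners of matched hotspots it was 57.1% and at those of STUS-side hotspots 25.2%. Above 75% were 65 of the 232, or 28.0% (interval 22.6 to 34.1%), where 7.81% of all B6 hotspots with this value were, and 15.8% of the partners of matched hotspots. Between 25 and 75% lay 161 (69.4%), against 81.8% of the partners of matched and 60.3% of those of all B6 hotspots. Below 25% lay 6 (2.59%), against 2.38 and 31.9% in the same order. Enrichment of H3K4me3 over input had a median of 5.03 at these partners, 6.13 at those of matched and 6.23 at those of STUS-side hotspots.

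At most of these positions, as at B6 hotspots in general, the listed DMC1 fraction was more one-sided than the H3K4me3 fraction. Across the 178 partners with both fractions, Spearman's rank correlation was 0.881 and Pearson's r 0.888. These describe hotspots of 1 genotype, which are not independent replicates. The DMC1 fraction lay farther from 50% than the H3K4me3 fraction at 148 of the 178 (83.1%, interval 77.0 to 87.9%), as it did at 76.7% of matched, 97.0% of STUS-side and 88.7% of all B6 hotspots with both fractions. Read numbers behind DMC1 fractions are unknown, so the assays may differ in precision. Their centers differed too: at partners of matched hotspots the median was 46.7% by DMC1 and 57.1% by H3K4me3. Whether either bears on the comparison was not tested. The 2 fractions lay on the same side of 50% at 142 of the 178 (79.8%), against 70% of matched, 95.2% of STUS-side and 85.1% of all B6 hotspots. At the 79 partners that were B6-side by DMC1, the median H3K4me3 fraction was 83.3%, with 56 above 75%, 23 matched and none below 25%, and a lowest value of 50%. At the 65 matched by DMC1 the median was 55.3% and 62 were matched by H3K4me3 too. At the 34 on the SPRT side it was 37.2%, and 29 of them were matched by H3K4me3. The 56 partners without a DMC1 fraction had an H3K4me3 fraction in 54 cases, with a median of 60.4%, 6 above 75% and 47 matched.

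**Figure D5:**
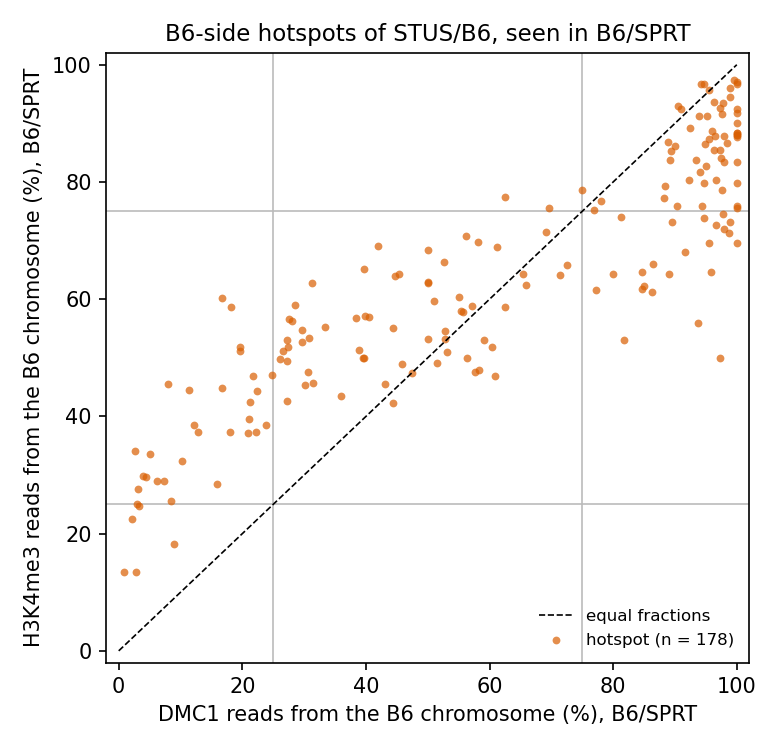
Percentage of H3K4me3 reads from the B6 chromosome (vertical axis) against that of DMC1 reads (horizontal axis) in B6/SPRT at the 178 positions of B6-side STUS/B6 hotspots that have both. Each point is a hotspot, gray lines mark 25 and 75%, the dashed line marks equal fractions, and the points lie along a slope flatter than that line.

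The positions were also looked up in the 3 genotypes without B6 PRDM9. Within 500 bp, STUS/Hum had a hotspot at 2 of the 645 (0.310%, interval 0.0851 to 1.12%), Hum/SPRT at 4 and CAST/SPRT at 2. For STUS/Hum the share was 0.155% within 250 bp and 0.775% within 1 kb, both inside that interval. For all B6 hotspots with a fraction the shares were 0.268, 0.770 and 0.358%. Alleles were assigned by the authors through comparison with other mice, and for the STUS motif a supplementary legend names the overlap between the hotspots of STUS/B6 and STUS/Hum. The low shares therefore say nothing on whether the attribution of the B6-side hotspots is right. The 2 in STUS/Hum were both assigned to the humanized allele there. One lies on chromosome 6 at position 47169442 within Cntnap2, a neurexin family gene, with a signal of 52.0 and a fraction of 95.8%. In STUS/Hum a hotspot of signal 21.6 had the same center and a fraction of 70.8%.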

How the data were processed

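The 19 samples are 1 DMC1 SSDS library per genotype and, for the SPRT crosses, ChIP-seq of H3K4me3 with its inputs. Per the labels, reads were aligned with BWA to mm10. The authors called hotspots per library, named the PRDM9 allele from hotspots of other mice, and split reads between homologs at SNPs. For each hotspot the authors deposited a DMC1 signal, whose scaling to depth is not stated, and a fraction of DMC1 reads from B6, without read numbers, so its depth is unknown. For B6/SPRT they deposited an H3K4me3 fraction, the count of reads carrying a SNP behind it, and a ratio of enrichment over input. These were taken as pooled over samples. A further 21 value columns were not used.

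Members and lists were chosen with earlier results of these data known. Hotspots of 2 libraries were paired by the nearest center within 500 bp. Medians, Wilson intervals and order-statistic intervals were computed with Python 3.11.15, pandas 2.3.3, numpy 2.4.6 and scipy 1.17.1, and plots with matplotlib 3.10.9. Intervals of H3K4me3 fractions at single hotspots use their SNP-carrying reads. Named regions are the 10 B6-side hotspots with the largest signal and the 5 largest each among those B6-side and SPRT-side in B6/SPRT. Others are those also called in STUS/Hum (up to 3, of which 2 exist and 1 is described), and the nearest above and the nearest below the limit. Pairing and intervals were tested on simulated data. Other settings covered the limit, signal, weighting, hotspots without a fraction, pairing distance, allele of the partner and read minimum. Chosen after seeing the data were signal minimums of 20, 50 and 100 and H3K4me3 fractions in place of missing DMC1 fractions at B6/SPRT partners.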

Additional observations from a re-analysis of the deposited data

How the results depend on the processing

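DMC1 values rest on 1 library per genotype and H3K4me3 values on 1 column taken as pooled, so no spread between mice can be given. No paired analysis was possible because the results come from no test and each genotype has 1 column of each value. The planned PRDM9 motif search and base composition around hotspot centers were not run, since no genome was at hand. Base composition is given for 4 promoter stretches alone. Of 51 alternative values, 33 stayed within the counting interval of the reported value, or within 1.5 times the reported count, and 18 did not.

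The number and share of B6-side hotspots followed the limit by construction: 14.7% above 70%, 9.45% above 80% and 6.85% (383 hotspots) above 90%. Among hotspots at or above the median signal of the library there were 218, or 6.58%. Counting hotspots without a fraction gave 10.5%, and weighting by signal 4.48%. The median signal was 32.6 and its ratio 0.506 with a limit of 90%, and means gave 49.3 and 0.388. The highest share of an autosome was 18.5, 10.9 and 8.35% with limits of 70, 80 and 90%, and the lowest 4.42% with 90%. Pairing within 250 bp found a B6/SPRT hotspot at 32.1%. The median B6 fraction at B6/SPRT partners lay between 55.5 and 76.9% over its alternatives, and the share above 75% between 36.6 and 51.3%. The only one of these outside its interval was 36.6%, with the H3K4me3 fraction in place of missing DMC1 fractions, an alternative chosen after seeing the data, as were the signal minimums of 20, 50 and 100. The H3K4me3 alternative added 54 partners, of which 6 had an H3K4me3 fraction above 75%. Why few of these lay above 75% was not tested.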
